A study of Mus musculus with 6 samples.

Results

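The genes described here encode the oncostatin M receptor (Osmr), the shared signal transducer gp130 (Il6st), the partner receptor chains Lifr, Il31ra and Cntfr, the ligand Lif, the kinases Jak1 and Jak2, the transcription factor Stat3 and the feedback inhibitor Socs3. They are 10 of 47643 gene identifiers in the deposited count tables. The list was chosen from earlier results of the same comparison, in which the difference of Osmr was already known, and the other genes were added as its co-receptors and signalling partners. The values of these genes between the groups are therefore given as a description, and no p-value is printed for them. RNA was sequenced from dorsal root ganglion cells that were taken from CD-1 mice at embryonic day 13, with 3 libraries from cells given a lentivirus carrying a hairpin against Uhrf1 (shUHRF1) and 3 libraries from cells given a lentivirus carrying a control hairpin (shControl). Both groups were uninjured and both had received a lentivirus. The labels give neither the hairpin sequences nor the share of transduced cells, and do not say whether embryos were pooled. The question of the study was which transcripts of uninjured sensory neurons differ when UHRF1, a protein that binds hemimethylated CpG sites and recruits the maintenance DNA methyltransferase, is knocked down.

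Cytokines of the interleukin 6 family signal through gp130, which pairs with a second chain that sets which ligand is recognised. OSMR pairs with gp130 to bind oncostatin M and with IL31RA to bind interleukin 31, while LIFR pairs with gp130 to bind leukemia inhibitory factor and, with CNTFR added, ciliary neurotrophic factor. Bound receptors activate the kinases JAK1, JAK2 and TYK2, which phosphorylate STAT3, and STAT3 induces SOCS3, which blocks gp130 and its kinases. In sensory ganglia this pathway is known for supporting neuron survival and the response to axon injury, and in adult mice Osmr and Il31ra mark a class of itch neurons.

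The promoter windows of the 3 receptor genes that differed most between the groups are shown because UHRF1 acts on methylated CpG sites. Each is the RefSeq sequence on GRCm38.p6 from 250 bases before to 50 bases after the annotated start, read 5′ to 3′ on the strand of the gene, with each CG in capitals. The Osmr window lies at chr15:6874264-6874563 on the minus strand, the Il6st window at chr13:112463820-112464119 on the plus strand, and the Il31ra window at chr13:112580613-112580912 on the minus strand. The Osmr and Il31ra windows lie inside the longer gene bodies that GENCODE gives for these genes.
Osmr: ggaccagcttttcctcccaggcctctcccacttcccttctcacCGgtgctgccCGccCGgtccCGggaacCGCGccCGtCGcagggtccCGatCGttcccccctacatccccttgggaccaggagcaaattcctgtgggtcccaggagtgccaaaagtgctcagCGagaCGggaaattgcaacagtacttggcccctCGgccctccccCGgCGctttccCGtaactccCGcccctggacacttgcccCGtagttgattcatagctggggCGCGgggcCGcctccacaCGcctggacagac
Il6st: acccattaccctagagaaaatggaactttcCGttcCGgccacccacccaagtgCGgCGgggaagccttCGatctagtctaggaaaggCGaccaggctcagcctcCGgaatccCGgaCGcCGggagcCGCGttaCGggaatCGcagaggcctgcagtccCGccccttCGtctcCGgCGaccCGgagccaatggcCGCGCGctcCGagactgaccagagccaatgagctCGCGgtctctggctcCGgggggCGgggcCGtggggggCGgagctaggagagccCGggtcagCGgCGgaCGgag
Il31ra: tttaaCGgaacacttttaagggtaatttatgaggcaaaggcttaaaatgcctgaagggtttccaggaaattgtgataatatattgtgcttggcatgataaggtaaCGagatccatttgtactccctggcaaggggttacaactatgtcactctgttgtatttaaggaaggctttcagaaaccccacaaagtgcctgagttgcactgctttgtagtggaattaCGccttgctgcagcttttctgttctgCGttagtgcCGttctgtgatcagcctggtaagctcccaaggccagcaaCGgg

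The Osmr window held 22 CG sites, a number reached by 23.1% of 32851 RefSeq promoter windows of the same length. The Il6st window held 33, a number reached by 8.56% of windows, and the Il31ra window held 6, a number reached by 56.4%. The median window held 7. Osmr and Il6st, which differed in opposite directions, both had windows above the upper quartile of 20 CG sites, and Il31ra did not. All 10 genes had at least 1 window, 16 in all. The STAT motif TTCNNNGAA, which reads the same on both strands, was found in 2 of these 16 windows and in 8.3% of all windows. The matches were TTCCAGGAA in the Il31ra window, 191 bases before the start, and TTCTTAGAA in the Socs3 window, 154 bases before the start. Both starts are those of RefSeq, and both windows lie inside the gene bodies that GENCODE gives for Il31ra and Socs3. DNA methylation and STAT binding were not measured in these libraries.

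Reads assigned to genes numbered 16501723 to 20973068 in the shUHRF1 libraries and 15599776 to 22382813 in the shControl libraries. Uhrf1 itself had 2, 1 and 5 reads in shUHRF1 and 8, 6 and 5 reads in shControl, at 0.13 ± 0.0981 and 0.364 ± 0.115 CPM (reads scaled to a common library size, with TMM factors; mean ± SD, n = 3 each). The groups overlapped and Uhrf1 did not pass the low-count filter. Pooled over libraries and scaled for depth, its ratio of shUHRF1 to shControl was 0.377, with an exact 95% interval of 0.143 to 0.901 for counting error alone. Kept without the filter, its log2 fold change was -1.43 ± 0.73 (SE; adjusted p = 0.245, edgeR quasi-likelihood test with Benjamini-Hochberg adjustment). Of 12 neuron markers, all were detected in every library and Tubb3 was called lower (log2 fold change -0.75, adjusted p = 0.0168, edgeR quasi-likelihood test). The Tubb3 call was lost without shControl replicate 1, without shControl replicate 3 or without shUHRF1 replicate 3. Whether libraries of a group came from separate cultures is not stated in the labels, so every p-value reflects how far these libraries differ and that spread may be technical.

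Osmr had 551, 390 and 383 reads in shUHRF1 replicates 1 to 3, against 17, 6 and 8 reads in shControl. These were 24.7, 23.0 and 18.6 CPM in shUHRF1, against 0.987, 0.388 and 0.383 CPM in shControl. Every shUHRF1 library was above every shControl library by more than the whole range of either group. The means were 22.1 ± 3.19 and 0.586 ± 0.347 CPM (SD, n = 3 each), a 37.7-fold ratio, and the log2 fold change was 5.23 ± 0.35 (SE). By log2 fold change Osmr ranked 2 of 10219 tested protein-coding genes averaging 5 CPM or more, with Gm, Rik and accession-type names left out. Osmr was chosen for this difference and averaged over 5 CPM only through its shUHRF1 libraries, so nothing is read from the rank. The gene lies on the minus strand of chromosome 15 at 6813577 to 6874969 (GRCm38), and its exons overlapped no other annotated gene.

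Il31ra, the chain that joins OSMR in the interleukin 31 receptor, had 9.61, 5.36 and 5.47 CPM in shUHRF1, against 0.465, 0.712 and 0.191 CPM in shControl. All shUHRF1 libraries were higher, with the largest value in the first. The means were 6.81 ± 2.42 and 0.456 ± 0.261 CPM (SD, n = 3 each), from 418 and 23 reads in all, and the log2 fold change was 3.93 ± 0.47 (SE). Its gene lies on chromosome 13 at 112519898 to 112594360, beside Il6st and on the opposite strand. The low-count filter kept genes at or above 0.524 CPM, before TMM factors, in at least 3 libraries. Osmr and Il31ra reached this in 1 shControl library each and Socs3 in 0, so these genes passed through their shUHRF1 libraries. Passing this way favours genes that are higher in shUHRF1, although not every gene that passed this way was called.

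Il6st, encoding gp130, went the other way. It had 117, 301 and 195 CPM in shUHRF1, against 944, 979 and 1070 CPM in shControl. The groups were far apart, and the shUHRF1 libraries spread more widely than the shControl libraries. The means were 204 ± 92.1 and 996 ± 62.6 CPM (SD, n = 3 each), 4.88-fold higher in shControl, and the log2 fold change was -2.29 ± 0.31 (SE). The gene lies on the plus strand of chromosome 13 at 112464070 to 112510086.

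Lifr, the leukemia inhibitory factor receptor chain, had 1610, 1750 and 1710 CPM in shUHRF1, against 1240, 1760 and 1510 CPM in shControl. Those ranges overlapped, and the log2 fold change was 0.17 ± 0.15 (SE), which was not called. Cntfr, the ligand-binding chain of the ciliary neurotrophic factor receptor, had 64.1, 52.9 and 63.7 CPM in shUHRF1, against 58.2, 35.3 and 67.5 CPM in shControl. Its ranges overlapped too, and its log2 fold change of 0.16 ± 0.22 (SE) was not called. The plot of each gene by library shows Osmr and Il31ra near 0 in shControl and Il6st lower in shUHRF1 beside the overlapping points of Lifr and Cntfr.

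**Figure D1:**
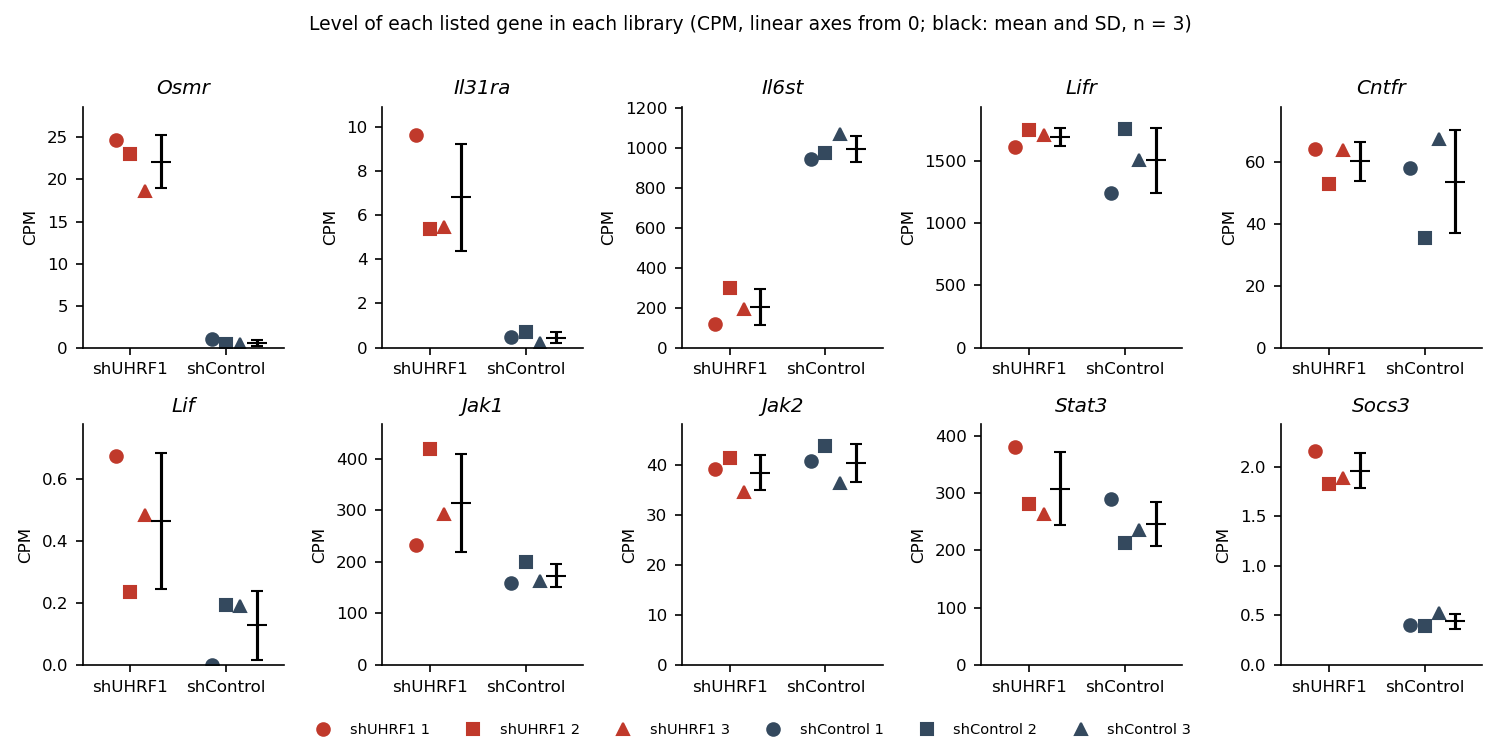
Level of each of the 10 genes in CPM (vertical axes, linear from 0) in 3 shUHRF1 libraries and 3 shControl libraries, with the mean and SD in black. Osmr sits between 18.6 and 24.7 CPM in shUHRF1 and below 1 CPM in shControl, while Il6st sits between 117 and 301 CPM in shUHRF1 and between 944 and 1070 CPM in shControl.

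Scaled by exon length, levels can be set side by side between the chains. In TPM, which divides reads by exon length before scaling to a fixed sum, Lifr was the most abundant chain in either group, at 644 ± 34.3 in shUHRF1 and 524 ± 104 in shControl (SD, n = 3 each). Il6st came second in shControl, at 75.7 ± 35.2 TPM in shUHRF1 and 337 ± 23.2 TPM in shControl. In shUHRF1 its range of 43.0 to 113 TPM overlapped that of Cntfr, which averaged 88.8 ± 8.25 TPM in shUHRF1 and 72.0 ± 21 TPM in shControl. Osmr and Il31ra were the lowest chains in both groups: Osmr averaged 7.49 ± 1.12 TPM in shUHRF1 and 0.18 ± 0.103 TPM in shControl. Il31ra averaged 4.92 ± 1.72 TPM in shUHRF1 and 0.303 ± 0.18 TPM in shControl, overlapping the range of Osmr in each group.

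Of the summed TPM of the 4 partner chains Osmr, Lifr, Cntfr and Il31ra, Osmr made up 1.16%, 1.03% and 0.832% in shUHRF1, against 0.0597%, 0.0182% and 0.0193% in shControl. Even in shUHRF1 it stayed a small part, with Lifr at 86.4% ± 1.71 in shUHRF1 and 87.5% ± 4.51 in shControl (SD, n = 3 each). With the longest transcript in place of the union of exons, the mean Osmr share was 1.91% in shUHRF1 and 0.062% in shControl, since annotated Osmr exons span 12113 bases and its longest transcript 5491. Set against gp130, the contrast was wider: Osmr had 19.4, 7 and 8.73 TPM per 100 TPM of Il6st in shUHRF1, against 0.0958, 0.0363 and 0.0329 in shControl. With the longest transcript these were 33.4, 12.1 and 15.1 in shUHRF1, against 0.165, 0.0627 and 0.0567 in shControl. Lifr had 14.2, 6.01 and 9.04 TPM per TPM of Il6st in shUHRF1, against 1.36, 1.85 and 1.45 in shControl. Lifr itself was not called, while Il6st was lower in shUHRF1. Between Osmr and Il31ra the ratio was closer, at 1.6 ± 0.4 TPM of Osmr per TPM of Il31ra in shUHRF1 and 0.729 ± 0.412 in shControl, and the range was 1.21 to 2.01 in shUHRF1 and 0.255 to 0.995 in shControl. With the longest transcript it was 1.73 to 2.87 in shUHRF1 and 0.366 to 1.42 in shControl, above 1 in 2 shControl libraries, so which of the 2 chains is higher in shControl depends on the length used.

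**Figure D2:**
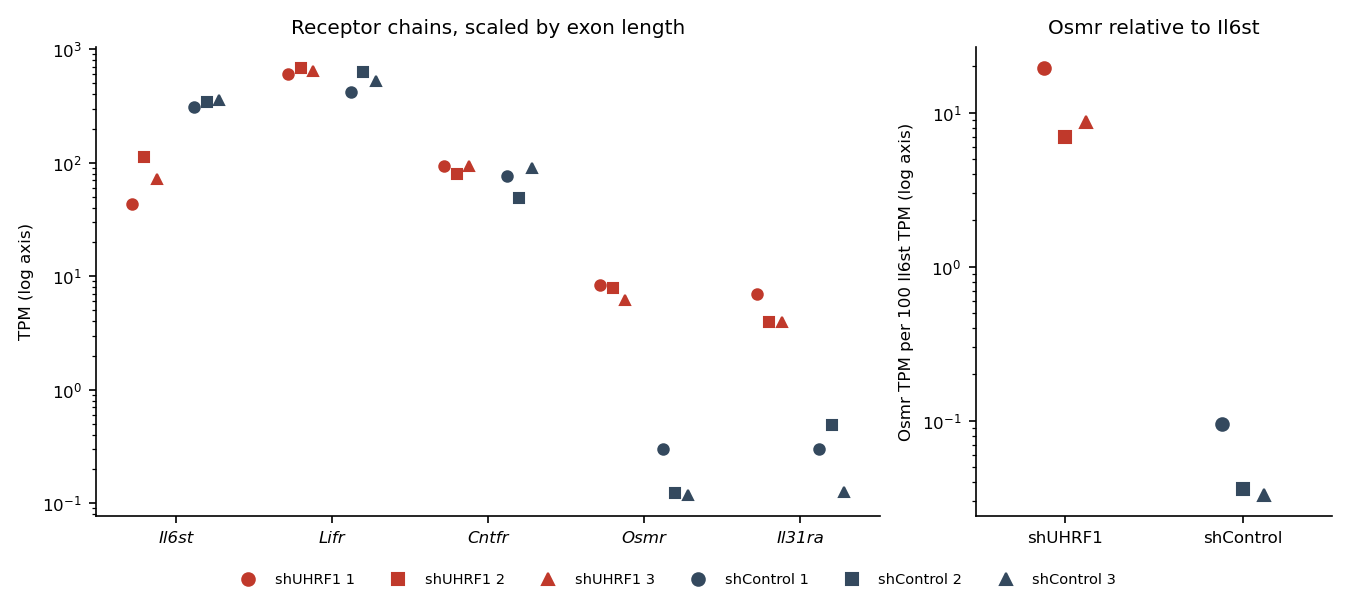
Left, TPM of the 5 receptor chains (log axis) in each of 3 shUHRF1 and 3 shControl libraries; right, TPM of Osmr per 100 TPM of Il6st (log axis). Lifr is the highest chain in both groups, and Osmr per 100 Il6st is 7 to 19.4 in shUHRF1 against 0.0329 to 0.0958 in shControl.

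Most tested markers of fibroblasts and glia and some of macrophages were higher in the same libraries as Osmr. Beside the count of each marker list stand 11.6% called higher and 12.4% called lower over all tested genes. Of 12 fibroblast markers, 11 were tested and 9 were called, all higher. Thy1, which neurons also express, was not called, at a log2 fold change of -0.82 ± 0.29 (SE). With Thy1 the summed levels overlapped, at 186.7, 388.9 and 356.9 CPM in shUHRF1, against 402, 250.4 and 335.6 CPM in shControl. Without Thy1 the summed level of these markers was 74.1, 135 and 178.8 CPM in shUHRF1, against 8.07, 7.64 and 12.7 CPM in shControl. The collagen gene Col1a2 rose in them, at 14.6 ± 5.99 CPM in shUHRF1 and 0.734 ± 0.165 CPM in shControl (SD, n = 3 each; log2 fold change 4.29, adjusted p = 0.000664, edgeR quasi-likelihood test). Of 10 macrophage markers, 7 were tested and 4 were called higher, with sums of 16.5, 40.4 and 25.8 CPM in shUHRF1, against 11.96, 6.02 and 8.94 CPM in shControl. Of 10 glia markers, 9 were tested, 7 were called higher and Mbp lower, and S100b was not called. The other 8 markers summed to 19.8, 18.9 and 29.1 CPM in shUHRF1, against 2.56, 2.91 and 2.73 CPM in shControl. The sum of all 10, held mostly by S100b and Mbp, was 104.8, 385.7 and 299.5 CPM in shUHRF1, against 405.6, 337.9 and 413 CPM in shControl. Of 10 endothelial and mural markers, 7 were tested and 2, Eng and Pdgfrb, were called higher, with a median log2 fold change of 0.94. Only Pecam1 and Egfl7 had negative log2 fold changes, of -0.34 ± 0.40 and -0.13 ± 0.18 (SE). The 10 markers summed to 40.91, 58.41 and 58.12 CPM in shUHRF1, against 43.15, 44.54 and 46.06 CPM in shControl. The 12 neuron markers summed to 19870, 24110 and 25920 CPM in shUHRF1, against 25760, 24490 and 29710 CPM in shControl. No marker of any of these lists was at 0 in all 6 libraries. Of the markers called higher, 5 of 9 fibroblast, 6 of 7 glia, 4 of 4 macrophage and 1 of 2 endothelial and mural markers passed the low-count filter only with their shUHRF1 libraries.

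Within shUHRF1, Osmr was highest in replicate 1, at 24.7 CPM. In that library the fibroblast sum without Thy1 and the macrophage, neuron, and endothelial and mural sums were at their lowest of that group. Osmr was lowest in replicate 3, at 18.6 CPM, where that fibroblast sum and the neuron sum were at their highest. Single markers varied: Dcn and Fap among fibroblast markers and Ptprc among macrophage markers were highest in replicate 1, and the 8 glia markers without S100b and Mbp were lowest in replicate 2. Il31ra and Socs3 were also highest in replicate 1. The part of these cell types in the levels of the receptor genes was not tested. In bulk RNA, a change in the number of cells of a type and a change in RNA per cell cannot be told apart.

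**Figure D3:**
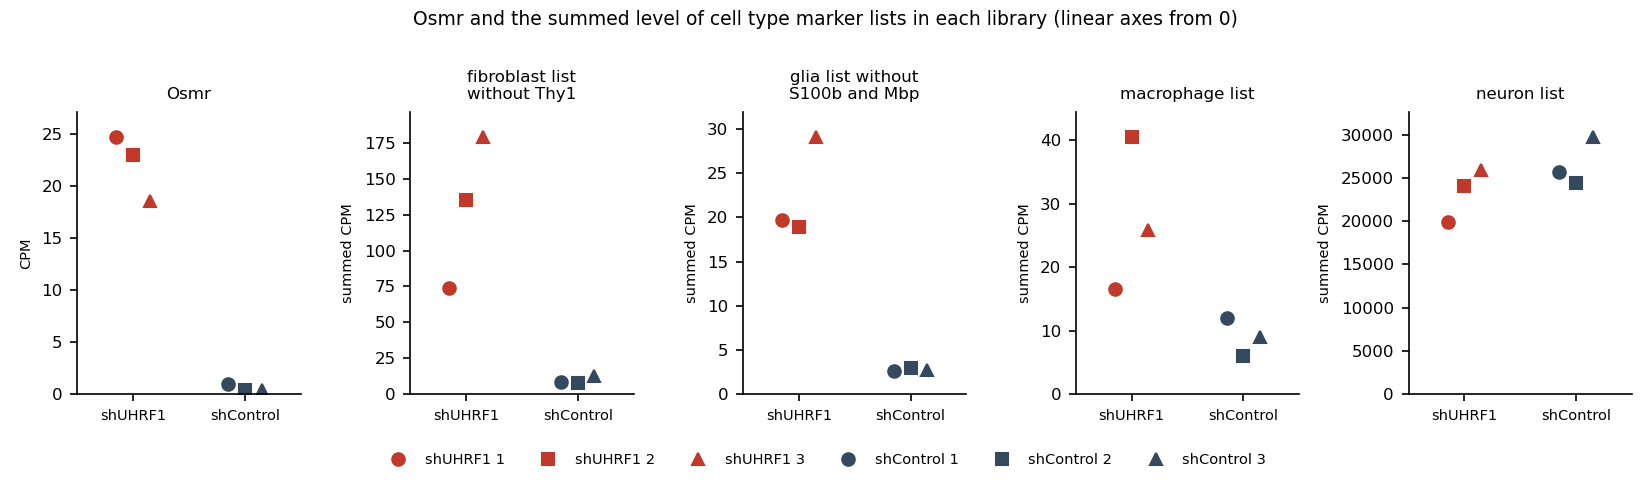
Level of Osmr in CPM and the summed CPM of 4 cell type marker lists, glia without S100b and Mbp (linear axes from 0) in 3 shUHRF1 and 3 shControl libraries. The fibroblast sum without Thy1 is 74.1 to 178.8 CPM in shUHRF1 against 7.64 to 12.7 CPM in shControl. The shUHRF1 replicate 1 library, with the highest Osmr, has the lowest fibroblast, macrophage and neuron sums of its group.

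Ligands of the family were scarce in these libraries. Lif, a ligand of LIFR, had 15, 4 and 10 reads in shUHRF1, against 0, 3 and 4 reads in shControl, and did not pass the filter. The lowest shUHRF1 library, at 0.236 CPM, stood just above the highest shControl library, at 0.194 CPM. Pooled and scaled for depth, the ratio of shUHRF1 to shControl was 3.71, with an exact 95% interval of 1.59 to 10 for counting error only. Osm, the ligand of OSMR, had 0 reads in shUHRF1 and 1 read in shControl, and a count of 0 allows up to 0.05 CPM over the shUHRF1 libraries. Il31, the ligand of the receptor that OSMR forms with IL31RA, also had 0 reads in shUHRF1 and 1 in shControl.

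Of 14 other ligands and receptor chains of the family, 5 were tested, 1 was called higher and 1 lower. Over all tested genes 11.6% were called higher and 12.4% lower. The listed gene called higher passed the filter only with its shUHRF1 libraries. Clcf1, a cytokine that acts through CNTFR, fell to 0.494, 0.589 and 0.533 CPM in shUHRF1, against 3.83, 3.37 and 3.44 CPM in shControl (log2 fold change -2.71 ± 0.27, SE; adjusted p = 0.000964, edgeR quasi-likelihood test). Its groups did not overlap. Clcf1 shares 311 exonic bases with another annotated gene on the same strand. Il11ra1, the interleukin 11 receptor chain, averaged 1.56 ± 0.305 CPM in shUHRF1 and 0.863 ± 0.324 CPM in shControl (SD, n = 3 each) and was not called (adjusted p = 0.142, edgeR quasi-likelihood test).

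Below the receptors, the kinases differed from each other. Jak1, the main kinase of gp130, had 233, 419 and 292 CPM in shUHRF1, against 158, 199 and 162 CPM in shControl. The groups did not overlap, and the log2 fold change was 0.86 ± 0.21 (SE). Its call was lost when shControl replicate 1 was left out (log2 fold change 0.78), and likewise for shControl replicate 3 (0.81) and shUHRF1 replicate 3 (0.90). Jak2, the second kinase, had 39.2, 41.5 and 34.7 CPM in shUHRF1, against 40.8, 43.9 and 36.4 CPM in shControl. These values overlapped almost fully, with a log2 fold change of -0.07 ± 0.13 (SE).

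Stat3 had 380, 280 and 263 CPM in shUHRF1, against 289, 213 and 236 CPM in shControl. The groups overlapped and the log2 fold change of 0.33 ± 0.18 (SE) was not called. It shares 72 exonic bases with Stat5a on the opposite strand. Socs3, the feedback inhibitor that STAT3 induces, had 2.16, 1.83 and 1.89 CPM in shUHRF1, against 0.407, 0.388 and 0.526 CPM in shControl. All shUHRF1 libraries were higher, on 118 and 24 reads in all. The means were 1.96 ± 0.175 and 0.44 ± 0.0748 CPM (SD, n = 3 each), and the log2 fold change was 2.12 ± 0.32 (SE).

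Of the 10 genes, 9 passed the low-count filter. At an adjusted p below 0.05 (edgeR quasi-likelihood test, Benjamini-Hochberg adjustment over 15573 genes) 4 of them were called higher, Osmr, Il31ra, Jak1 and Socs3, and 1 lower, Il6st. Over all tested genes 11.6% were called higher and 12.4% lower, which were 1807 and 1928 genes, or 2512 and 1378 genes with upper-quartile factors. With the replicate number as a block the same calls were made, 4 higher and 1 lower, against 15.3% higher and 15.7% lower over all genes. The groups did not overlap in 4 tested genes that were higher and 1 that was lower in shUHRF1, against 21.7% and 22.3% of all tested genes. The median log2 fold change of the 9 genes was 0.33, beside 0.017 over all tested genes. Nothing is read from these counts, because the comparison had chosen the genes.

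The list of other JAK kinases, STATs and regulators held 27 genes, of which 25 were tested, 7 were called higher, 4 lower and 14 not called, against 11.6% higher and 12.4% lower over all tested genes. Without shControl replicate 3 the counts were 4 higher and 2 lower, and without shControl replicate 1 they were 5 and 2. Its median log2 fold change was 0.27. Among kinases, Tyk2, which also serves gp130, rose to 66.1, 45.7 and 55.5 CPM in shUHRF1, against 21.6, 24.1 and 21.6 CPM in shControl (log2 fold change 1.31 ± 0.16, SE; adjusted p = 0.00164, edgeR quasi-likelihood test). Jak3, the kinase of receptors with the common gamma chain, rose to 7.80 ± 4.22 CPM in shUHRF1, against 2.32 ± 0.614 CPM in shControl (SD, n = 3 each; adjusted p = 0.0179, edgeR quasi-likelihood test). Its call was lost without shControl replicate 2 or 3, with log2 fold changes of 1.21 to 1.98 over all alternatives.

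Among the STATs, Stat5a rose to 9.48, 4.83 and 5.96 CPM in shUHRF1, against 0.871, 0.971 and 0.813 CPM in shControl (log2 fold change 2.93 ± 0.33, SE; adjusted p = 0.00138, edgeR quasi-likelihood test). Its neighbour Stat3, on the opposite strand, had 18667 reads in shUHRF1 and 13191 in shControl, and reads in the bases they share cannot be assigned to one of them without the strand setting. Stat2, Stat5b and Stat6 were not called, with log2 fold changes of 0.16 ± 0.25, 0.14 ± 0.16 and 0.39 ± 0.23 (SE).

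Among regulators, the SOCS family split. Socs5 fell to 22.7, 22.0 and 26.3 CPM in shUHRF1, against 48.0, 42.0 and 60.9 CPM in shControl (log2 fold change -1.09 ± 0.16, SE; adjusted p = 0.00376, edgeR quasi-likelihood test). Socs7 fell by less, with a log2 fold change of -0.47 ± 0.11 (SE; adjusted p = 0.0163, edgeR quasi-likelihood test), and its call was lost without shControl replicate 1 or 3. Socs6 was called higher at an adjusted p of 0.0499 (edgeR quasi-likelihood test), which was 0.0524 with the replicate block, and Socs1, Socs2, Socs4 and Cish were not called. Ptpn1, a phosphatase that acts on JAK2 and TYK2, rose to 113, 87.8 and 112 CPM in shUHRF1, against 49.4, 49.7 and 62.3 CPM in shControl (log2 fold change 0.95 ± 0.15, SE; adjusted p = 0.00435, edgeR quasi-likelihood test). Ptpn2, its close relative, was also called higher (adjusted p = 0.0485), and Ptpn11, the phosphatase recruited to gp130, was not called (adjusted p = 0.258, both edgeR quasi-likelihood tests).

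Among Shc1, Grb2, Sos1 and Gab1, which lead from the receptors to Ras, 2 of 4 were called, both lower, against 12.4% called lower over all tested genes. These 4 were grouped after their values were seen, so nothing is read from that count. Shc1 kept its call in all 14 alternatives and Grb2 lost its call in 4. Shc1 fell to 26.9, 33.9 and 25.1 CPM in shUHRF1, against 90.8, 91.5 and 82.3 CPM in shControl (log2 fold change -1.63 ± 0.14, SE; adjusted p = 0.000653, edgeR quasi-likelihood test). Grb2 fell to 47.9 ± 10 CPM in shUHRF1, against 73.8 ± 5.98 CPM in shControl (SD, n = 3 each; adjusted p = 0.0275, edgeR quasi-likelihood test). Sos1 and Gab1 were not called, at log2 fold changes of 0.28 ± 0.09 and -0.32 ± 0.31 (SE).

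Of 27 genes known as STAT3 targets, 18 were tested, 6 were called higher, 1 lower and 11 not called, with a median log2 fold change of 0.13, against 11.6% higher and 12.4% lower over all tested genes. Only 2 were called higher without shControl replicate 2 or without shControl replicate 3, and 3 without shControl replicate 1, and 0 were called lower without shControl replicate 1 or 3, without shUHRF1 replicate 1 or 2, or with upper-quartile factors. The fibroblast sum without Thy1 and the macrophage sum given above were higher in the same shUHRF1 libraries. The part of those cells in these counts was not tested. Junb, an AP-1 transcription factor, rose to 20.9, 7.95 and 11.4 CPM in shUHRF1, against 3.66, 3.30 and 3.54 CPM in shControl (log2 fold change 1.94 ± 0.35, SE; adjusted p = 0.00724, edgeR quasi-likelihood test). It shares 173 exonic bases with the more abundant Prdx2 on the opposite strand. A2m, an acute-phase protease inhibitor, rose to 14.9, 6.48 and 7.02 CPM in shUHRF1, against 2.15, 1.04 and 2.39 CPM in shControl (log2 fold change 2.33 ± 0.43, SE; adjusted p = 0.00773, edgeR quasi-likelihood test). In both genes shUHRF1 replicate 1 was the highest library. Hif1a, the oxygen-sensing transcription factor, rose to 256, 143 and 150 CPM in shUHRF1, against 109, 82.9 and 76.1 CPM in shControl (adjusted p = 0.0202, edgeR quasi-likelihood test), a call lost without shControl replicate 2 or 3.

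Icam1 and Bcl3 reached the filter's level in 0 shControl libraries, so they passed it only through shUHRF1 and are given as values. Icam1, a cell adhesion gene, had 8.49, 1.18 and 0.775 CPM in shUHRF1, against 0.0581, 0.453 and 0.143 CPM in shControl, with most of its reads in the first shUHRF1 library. Bcl3, a nuclear regulator of NF-κB, had 84 reads in shUHRF1 and 11 in shControl. Ccnd1, the cyclin D1 gene, was called higher and Pim3, a survival kinase, lower (adjusted p = 0.0464 and 0.0482, edgeR quasi-likelihood test), and each lost its call in 7 of 14 alternatives. Exons of Ccnd1 overlap a gene on the opposite strand over 1100 bases.

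Several classical targets in this list were not called. Pim1, Myc and Mcl1 had log2 fold changes of 0.15 ± 0.18, -0.13 ± 0.25 and 0.11 ± 0.13 (SE), and Fos had -0.93 ± 0.86. Atf3 and Serpina3n, markers of injury and acute-phase responses, were not called either, at 0.29 ± 0.70 and 0.02 ± 0.28 (SE). With the replicate block, Cebpb and Vegfa were called lower (adjusted p = 0.0295 and 0.0115) and Gal, a neuropeptide of injured neurons, higher (adjusted p = 0.0123, edgeR quasi-likelihood test), so that the list had 7 higher and 3 lower.

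**Figure D4:**
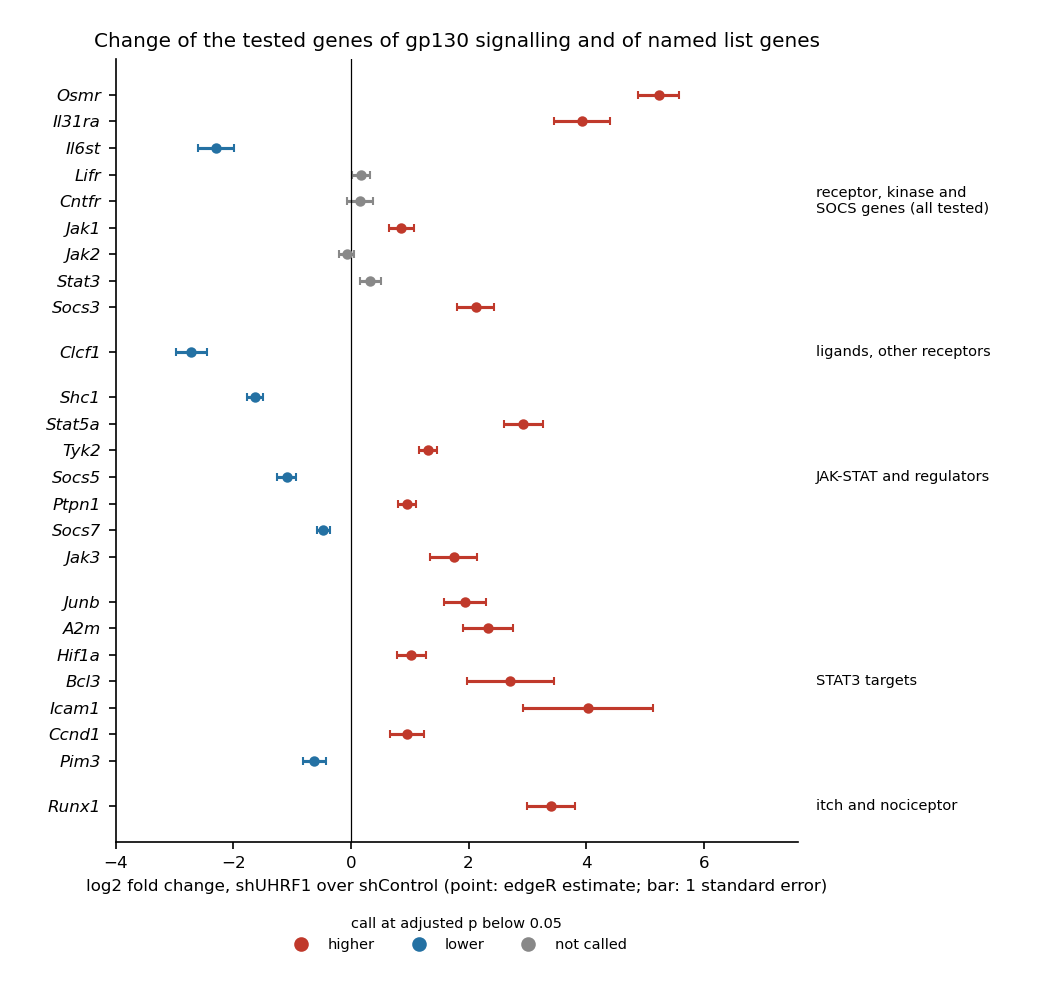
Log2 fold change of shUHRF1 over shControl (points, with 1 SE; horizontal axis) for the 9 tested genes of the gp130 pathway and named genes of 4 lists, coloured by the call at an adjusted p below 0.05. Osmr at 5.23 and Il6st at -2.29 lie at opposite ends of the receptor group, and the JAK-STAT regulators spread to both sides of 0.

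Because adult itch neurons carry Osmr and Il31ra, 16 genes of itch and nonpeptidergic nociceptor neurons were examined. Of these, 7 were tested and 1 was called, higher, against 11.6% called higher and 12.4% lower over all tested genes. The median log2 fold change of the tested genes in this list was -0.21. Runx1, a transcription factor of this lineage, rose to 35.2, 12.7 and 15.9 CPM in shUHRF1, against 2.32, 2.01 and 1.72 CPM in shControl (log2 fold change 3.40 ± 0.41, SE; adjusted p = 0.00177, edgeR quasi-likelihood test). Runx1 is also expressed by macrophages and other blood cells, and the macrophage sum given above was higher in the same libraries. Within shUHRF1, Runx1 was highest in replicate 1, where that sum and the neuron sum were lowest. Of the 7 tested macrophage markers, 1, Ptprc, was also highest in that library. The part of these cells in the level of Runx1 was not tested. The genes that define adult itch neurons were at the edge of detection. Nppb had 2 reads in shUHRF1 and 2 in shControl, Cysltr2 had 2 and 1, Mrgpra3 had 0 and 1, and Sst had 26 and 5. Scn10a, the sodium channel Nav1.8 of nociceptors, had 201, 743 and 520 CPM in shUHRF1, against 1080, 955 and 1160 CPM in shControl. Its groups did not overlap, but it was not called (log2 fold change -1.13 ± 0.39, SE; adjusted p = 0.0739, and 0.032 with the replicate block, edgeR quasi-likelihood test). Trpv1, P2rx3, Plxnc1, Scn11a and Hrh1 were not called.

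Neighbouring genes were those with a body within 500 kb of either end of the gene. Around Osmr, 2 protein-coding genes were tested and 0 were called by edgeR, DESeq2 or limma-voom, with 1, Rictor, at an unadjusted p below 0.05, and with 11.6% of all tested genes called higher and 12.4% lower nothing is read from a count of 0 among 2. Rictor, a subunit of the mTORC2 complex, averaged 114 ± 3.52 CPM in shUHRF1 and 135 ± 5.78 CPM in shControl (SD, n = 3 each; adjusted p = 0.113, edgeR quasi-likelihood test), and Lifr, whose start lies at -215.6 kb in the reading direction of Osmr, is described above. Around Il6st, 9 genes were tested. Il31ra, with its start 130.3 kb away, and Slc38a9 (log2 fold change 0.44 ± 0.12, SE; adjusted p = 0.0335) were called higher and Plpp1 lower (-0.43 ± 0.12, SE; adjusted p = 0.0343, edgeR quasi-likelihood test). The call of Slc38a9 was lost in 8 and that of Plpp1 in 5 of 14 alternatives. Il6st and Il31ra thus lay side by side and differed in opposite directions. Around Socs3, 17 genes were tested, 4 were called higher and 3 lower, against the same shares of all genes. Lgals3bp, a secreted galectin-binding protein gene, rose there to 25.1 ± 2.43 CPM in shUHRF1, against 11.4 ± 1.73 CPM in shControl (SD, n = 3 each; adjusted p = 0.00319), and Timp2, a metalloproteinase inhibitor, fell to 46.9 ± 21.5 CPM in shUHRF1, against 530 ± 105 CPM in shControl (SD, n = 3 each; adjusted p = 0.00124, edgeR quasi-likelihood test). The nearest tested gene, Pgs1, fell with a log2 fold change of -0.59 ± 0.09 (SE; adjusted p = 0.00483, edgeR quasi-likelihood test).

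**Figure D5:**
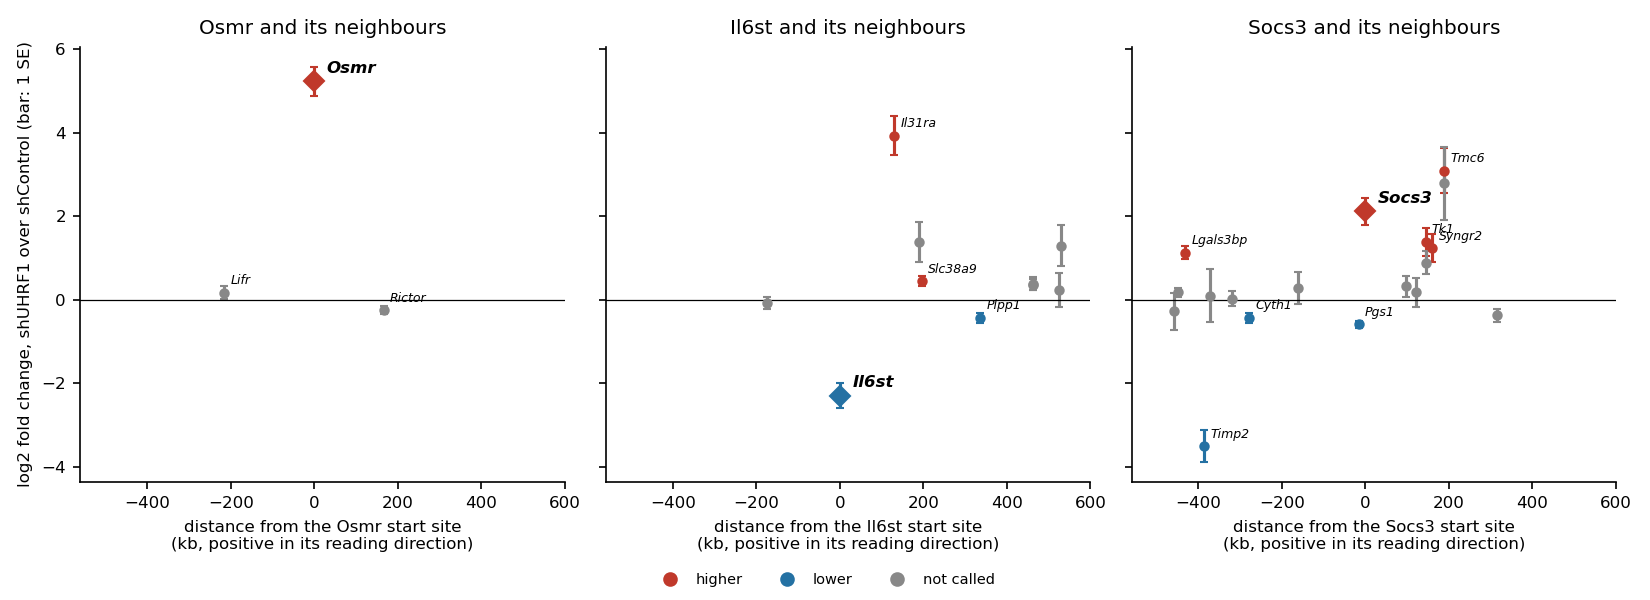
Log2 fold change of shUHRF1 over shControl (vertical axis, with 1 SE) of the tested protein-coding genes whose bodies lie within 500 kb of either end of Osmr, Il6st or Socs3, against the distance between start sites in kb. Osmr lies at 5.23, Rictor at -0.24 and Lifr at 0.17, and Il31ra at 3.93 lies 130.3 kb from Il6st at -2.29.

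Likeness to Osmr was taken among 10218 other protein-coding genes averaging 5 CPM or more, again without Gm, Rik and accession-type names. The genes whose levels were most like those of Osmr over the 6 libraries were found by Pearson's r of log2(CPM + 1). They included Cemip2 (r = 0.9988), Ldlrad3 (0.9976), H2afy (0.9969) and Rgs9 (0.995). These 4 had their highest or near-highest shUHRF1 level in replicate 1, as Osmr did. They were chosen by r over these same libraries, so nothing is read from that shared order. Cemip2, a cell-surface hyaluronidase gene, averaged 86.8 ± 5.25 CPM in shUHRF1 and 40.7 ± 2.11 CPM in shControl (SD, n = 3 each). H2afy, encoding the histone variant macroH2A1, averaged 81.7 ± 1.02 CPM in shUHRF1 and 72.4 ± 0.75 CPM in shControl, so a high r did not need a large difference. Among the pathway genes, r with Osmr was 0.821 for Jak1, 0.674 for Stat3, 0.451 for Lifr, 0.353 for Cntfr, -0.25 for Jak2 and -0.952 for Il6st. These values are a description over 6 libraries that share 2 groups, and any gene that separates the groups has a high r.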

How the data were processed

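RNA from dorsal root ganglion cells of mouse embryos was sequenced in 6 libraries, 3 shUHRF1 and 3 shControl, after ribosomal RNA depletion and SMARTer cDNA synthesis, per the labels' protocols. The authors deposited raw whole-number read counts per gene, with 47643 identifiers and 5 summary lines. The submitters' processing notes name FastQC, STAR, HTSeq, DESeq2 and mm10, without versions, an annotation release or a strand setting, so reads from overlapping genes of opposite strands could not be separated. Summary lines were excluded from all library sizes. Of all entries, 8.43% to 17.177% lay outside genes, most in the libraries numbered 2, while 2.12% to 2.265% were ambiguous and 30.505% to 37.277% had several alignments.

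Symbols and coordinates came from GENCODE M21 (GRCm38), which matched 47224 identifiers. From the counts, edgeR 4.0.16 in R 4.3.3 tested 15573 genes that passed filterByExpr (TMM factors, quasi-likelihood F test, two-sided, Benjamini-Hochberg adjustment, call below 0.05). Standard errors were derived from the F statistic. CPM used TMM-scaled library sizes, and TPM used exon-union length. The fit was tested on simulated counts with known changes. Promoter windows came from RefSeq.

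The genes and lists were chosen with earlier results of these data known. Named genes were the 10 listed genes and Uhrf1, the called genes of each of 4 pathway lists up to the 8 with the smallest p, tested neighbours with a body within 500 kb of Osmr, Il6st or Socs3, and the 5 genes most like Osmr. Some genes that this rule names are not reported here, although the counts include them. Other genes named in the text were chosen after their values were seen.

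Over 11007 genes, same-numbered libraries of the groups had correlated deviations from their group means (r = 0.316, 0.279 and 0.45), against -0.356 to -0.068 for other pairs. That the numbers pair libraries is an inference from these values and not from the labels. Deviations from a group mean cancel within the group, so positive values for same-numbered pairs push those of other pairs down. The main fit used the group only and did not pair libraries. Alternatives were a replicate block, DESeq2 1.42.0, limma-voom (limma 3.58.1), RLE and upper-quartile factors, no filter, at least 2 CPM in at least 3 libraries, each library left out, the longest transcript length and, added after seeing the data, both libraries numbered 2 left out and the glia sum without S100b and Mbp.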

Additional observations from a re-analysis of the deposited data

How the results depend on the processing

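Over the alternatives, 122 values of the 9 tested pathway genes had the outcome of the main fit, called or not called. A call was lost in 3 values, all of Jak1, on leaving out shControl replicate 1, shControl replicate 3 or shUHRF1 replicate 3. Lifr, Cntfr, Jak2 and Stat3 were called in no alternative and are among the 122. The genes were chosen from this same comparison, so nothing is read from these counts. Cntfr and Jak2, called in none, took either sign. Log2 fold changes ranged from 4.96 to 5.79 for Osmr, from 3.52 to 4.53 for Il31ra, from -2.70 to -2.01 for Il6st and from 2.03 to 2.27 for Socs3, which was not tested under the filter of 2 CPM. Between 3 and 4 pathway genes were called higher, and 1 lower, under each alternative. For other named genes, 521 values had the outcome of the main fit, called or not called, 62 lost a call, 19 gained one and 0 reversed. With the replicate block, 4820 genes were called in place of 3735, and 24 genes of the pathway lists in place of 21. With each library left out, 1768 to 3888 genes and 11 to 21 list genes were called, with 1768 and 11 without shControl replicate 3, 2018 and 13 without shControl replicate 1, and 2171 genes without shUHRF1 replicate 3. With the longest transcript length, the mean Osmr share of partner chains in shUHRF1 was 1.91% in place of 1.01%, because its exon union is longer than its longest transcript. Upper-quartile factors put the median over all tested genes at a log2 fold change of 0.142, in place of 0.017, and the calls to 2512 higher and 1378 lower, in place of 1807 and 1928. Depth limits Lif, Osm, Il31 and Uhrf1, which had under 30 reads in each group.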

Other observations

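Some genes of the pathway lists that did not pass the low-count filter had reads almost only in shUHRF1, which were found after the values were seen. Vip, a neuropeptide gene of injured sensory neurons, had 43, 2 and 15 reads in shUHRF1 and 0 reads in each shControl library. Gfap, a glial filament gene, had 36 reads in shUHRF1 and 4 in shControl. Il6, encoding interleukin 6, had 12 reads in shUHRF1 and 1 in shControl, with a depth-scaled ratio of 10.7 and an exact 95% interval of 1.59 to 459 for counting error only. Kept without the filter, Il6 had an adjusted p of 0.102 (edgeR quasi-likelihood test). Il6ra, its receptor chain, had 33 reads in shUHRF1 and 18 in shControl.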
